A study of Rattus norvegicus with 18 samples.

Results

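The genes described here encode Bambi and 9 further components of activin and bone morphogenetic protein (BMP) signalling: the subunit genes Inhba, Inhbb and Inha, the antagonist Fst, the receptors Acvr1, Acvr2a and Acvr2b, the inhibitory Smad7 and the target gene Id1. Every probe set that the array's annotation assigns to 1 of these 10 symbols was taken, which gave 16 of the 31042 probe sets tested; the annotated array names 14217 genes in all. Bambi and Inhba were picked because their inductions were already known from these arrays. For both genes the changes after ligand are therefore given as a description, with no p-value. Where calls are counted, nothing is read from theirs. The other 8 genes were added for their place in the pathway.

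RNA came from rat hippocampal neurons in dissociated culture, hybridised to 18 Affymetrix arrays with 3 biological replicates in each of 6 groups. Lentiviral transduction was on day 3, and on day 10 cultures were taken before and 1 h and 2.5 h after addition of 4-hydroxytamoxifen (4OHT), a ligand of the estrogen receptor. In 3 groups the virus carried MEF2-VP16-ER, the transcription factor MEF2 joined to the strong viral activation domain VP16 and to an estrogen receptor domain, so that ligand switches the fusion on. The 3 control groups carried MEF2deltaDBD-VP16-ER, which lacks the DNA-binding domain of MEF2. An estrogen receptor fusion and VP16 were thus present in every group, and the study has no culture without virus. MEF2-VP16-ER is an added activator and does not report on the neurons' own MEF2. The viral promoter, the strain and the age of the animals are not given in the sources used here.

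Activins are dimers of beta subunits: the product of Inhba forms activin A and that of Inhbb activin B, while a beta subunit joined to the alpha subunit from Inha makes an inhibin, which opposes activin. Ligand binds a type II receptor such as Acvr2a or Acvr2b, which phosphorylates a type I receptor. The type I receptor, such as Acvr1 for BMPs, activates Smad proteins that enter the nucleus. Follistatin (Fst) captures activin outside the cell, Smad7 blocks the type I receptor from inside, and Bambi is a membrane protein that resembles a type I receptor without the kinase domain and so dampens the signal. In hippocampal neurons Inhba is known as a gene whose transcript rises with synaptic activity, and activin A as a factor that protects neurons and acts on dendritic spines.

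Values are the deposited intensities on a linear scale. Array medians lay between 190.3 and 196.9 and lower quartiles between 67.39 and 71.05. A change is given on the scale of log2(intensity + 16), which understates changes of dim probe sets, and an induction is the change from 0 h with MEF2-VP16-ER minus that in control neurons. A gene is said to have risen or fallen only at an adjusted p under 0.05 (limma, Benjamini-Hochberg over the 31042 probe sets). Of the neuron markers, 12 of 12 were measured, with a summed intensity of 68522 to 78470 in each array, and none was called in any comparison. That sum was 74303 to 76432 with MEF2-VP16-ER at 2.5 h, 69616 to 72048 in control neurons at that time and 72314 to 78470 with MEF2-VP16-ER at 0 h; its part in the results was not tested. Astrocyte markers (8 of 8 measured) summed to 37731 to 54440 and oligodendrocyte markers (8 of 9) to 8059 to 18219, so the cultures held glia as well. The 5 endothelial markers measured had mean intensities of 41.8 to 74.4, the 8 microglial ones 46.8 to 233 and the 6 fibroblast ones 41.6 to 641. The 3'/5' intensity ratio, a measure of RNA integrity, was 1.02 to 1.28 for GAPDH and 1.84 to 2.77 for actin. In cultures of mixed cells, fewer cells of a type and less RNA per cell cannot be told apart.

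The sequences just upstream of Bambi and of both beta subunit genes are shown because these 3 transcripts had the largest inductions in size at 2.5 h among the 10 genes; Inhbb was added to this set after its values were seen. Each run is the 250 bases before the transcript start in the RefSeq promoter table (GRCr8), read 5′ to 3′ on the gene's strand, and capitals mark the motif matches described next. The Bambi window is chr17:58821004-58821253, that of Inhba chr17:53804509-53804758 and that of Inhbb chr13:33089374-33089623, all on the minus strand.
Bambi: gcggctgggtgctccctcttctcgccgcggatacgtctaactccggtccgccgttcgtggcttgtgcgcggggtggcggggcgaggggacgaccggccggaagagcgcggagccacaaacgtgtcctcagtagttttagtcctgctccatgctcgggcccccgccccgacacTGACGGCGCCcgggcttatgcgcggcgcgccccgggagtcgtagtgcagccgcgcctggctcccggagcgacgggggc
Inhba: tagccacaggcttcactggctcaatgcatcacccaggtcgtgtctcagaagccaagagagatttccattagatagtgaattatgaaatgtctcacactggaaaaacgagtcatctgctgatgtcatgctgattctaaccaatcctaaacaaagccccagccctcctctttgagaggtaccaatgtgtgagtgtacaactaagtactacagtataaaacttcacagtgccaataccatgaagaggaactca
Inhbb: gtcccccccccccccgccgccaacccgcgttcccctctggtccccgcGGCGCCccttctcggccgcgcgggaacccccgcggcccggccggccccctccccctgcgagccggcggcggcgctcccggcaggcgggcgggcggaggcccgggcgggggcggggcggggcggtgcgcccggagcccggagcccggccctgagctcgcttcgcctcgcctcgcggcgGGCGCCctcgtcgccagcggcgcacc

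The tabled Inhba start lies inside the span of the gene, downstream of its outermost annotated end. GC content was 72.4% for the Bambi window, 43.6% for Inhba and 86.8% for Inhbb, against a median of 51.2% over 33469 windows of the same length. On both strands 5 motifs were searched: the MEF2 consensus, the CArG box of SRF, the half-site TGACG of the cyclic AMP response element, the AP-1 site TGANTCA and the GC-rich Smad site GGCGCC. No window of the 8 genes found in the table held the MEF2 consensus, the CArG box or the AP-1 site, which occur in 2.96%, 1.5% and 6.34% of all windows. Bambi held TGACG (in 18.2% of all windows) at -78 to -74, counting the first transcribed base as 0, overlapping by its last base with a GGCGCC (8.69% of all windows) at -74 to -69. The Inhbb window held GGCGCC at -203 to -198 and at -26 to -21, and the Inhba window held none of the 5. These letters are a description of a short window and say nothing of binding elsewhere. The windows of Inha and Acvr2a also held TGACG and that of Smad7 held GGCGCC; Fst and Acvr1 had no entry.

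Bambi was low and even across the control arrays and all arrays before ligand, and was higher within 1 h of ligand in every MEF2-VP16-ER culture. The gene lies on chromosome 17 of the GRCr8 assembly (58816438 to 58821003, minus strand) and has 1 probe set, 1370823_at. Before ligand its intensity was 148, 176 and 147 with MEF2-VP16-ER in replicates 1, 2 and 3, and 159, 178 and 144 in control neurons. After 1 h it was 424, 318 and 393 with MEF2-VP16-ER, against 163, 151 and 140 in control neurons. After 2.5 h it was 563, 473 and 537, against 162, 137 and 145. The 6 arrays with MEF2-VP16-ER and ligand were the 6 highest, those at 2.5 h all lay above those at 1 h, and the other 4 groups overlapped. The means were 157 ± 16.5 (SD, n = 3) at 0 h, 378 ± 54.7 at 1 h and 524 ± 45.9 at 2.5 h.

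The induction of Bambi was 1.26 ± 0.15 log2 units (standard error, n = 3 in each group) at 1 h, a fold of 2.39, and 1.75 ± 0.15 at 2.5 h, a fold of 3.35. Taken within replicate numbers it was 1.39, 1.01 and 1.37 at 1 h and 1.79, 1.69 and 1.76 at 2.5 h, so the cultures differed more at the early time. By the estimates, most of the induction seen at 2.5 h was present at 1 h: the later minus the earlier induction was 0.49 ± 0.15. Before ligand the constructs differed by -0.03 ± 0.11 (limma adjusted p = 0.963), and control neurons changed by -0.07 ± 0.11 at 1 h (adjusted p = 1.00) and by -0.10 ± 0.11 at 2.5 h (adjusted p = 1.00). These latter 3 comparisons share their arrays with the inductions.

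**Figure D1:**
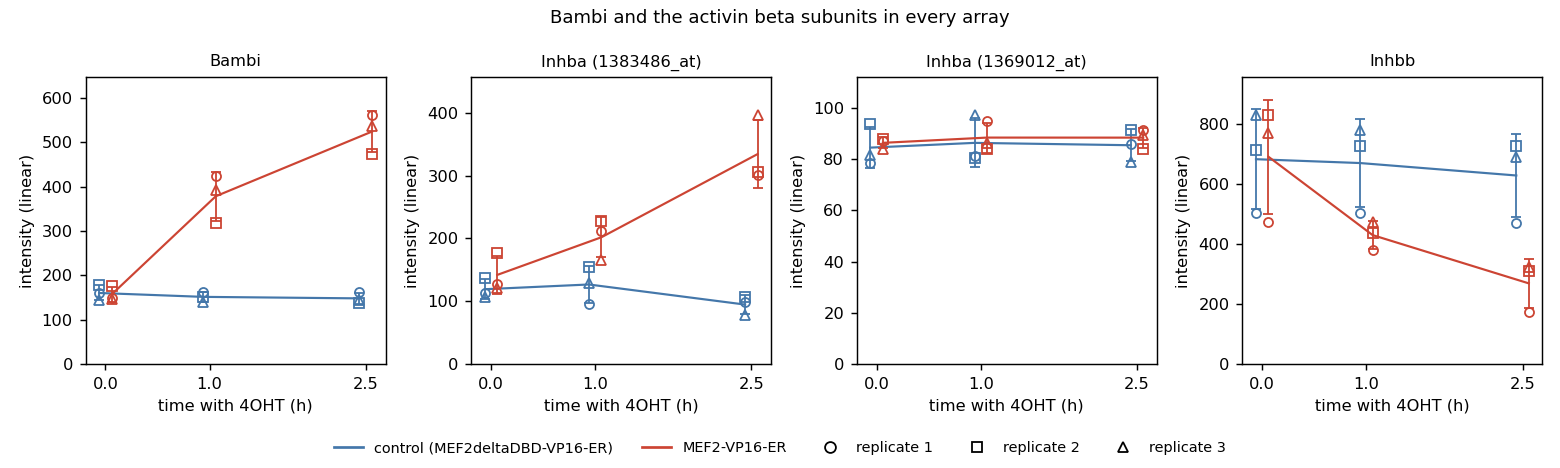
Intensity (linear axis from 0) of Bambi, both Inhba probe sets and Inhbb against time with 4OHT; each symbol is 1 array, marked by replicate number, lines join group means and bars are SD (n = 3). Bambi and Inhba 1383486_at climb only in the MEF2-VP16-ER cultures, Inhba 1369012_at is flat in both, and Inhbb declines in the MEF2-VP16-ER cultures.

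By the estimates at 2.5 h, Inhbb and 1 of the 2 Inhba probe sets went in opposite directions. The Inhba gene (chromosome 17, 53787159 to 53810942, minus strand) is measured by 2 probe sets that disagreed. On 1383486_at the intensity with MEF2-VP16-ER was 128, 177 and 121 before ligand, 212, 228 and 166 at 1 h and 300, 305 and 397 at 2.5 h. In control neurons it was 113, 137 and 107 at 0 h, 96.0, 155 and 129 at 1 h and 98.8, 107 and 78.1 at 2.5 h. The MEF2-VP16-ER arrays at 2.5 h lay above all 15 others, those at 1 h overlapped with those at 0 h, and the control groups overlapped with each other. The group means ran from 94.7 ± 14.9 (SD, n = 3) in control neurons at 2.5 h to 334 ± 54.6 with MEF2-VP16-ER at 2.5 h.

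Inhba was induced later than Bambi by the estimates: 0.41 ± 0.25 log2 units at 1 h (fold 1.33) and 1.45 ± 0.25 at 2.5 h (fold 2.73). Of the latter, 1.16 ± 0.18 came from the MEF2-VP16-ER cultures and -0.29 ± 0.18 from control neurons, where the change had an adjusted p of 1.00 by limma. In replicates 1, 2 and 3 the induction was 1.31, 1.05 and 1.98 at 2.5 h and 0.87, 0.18 and 0.17 at 1 h. The other probe set, 1369012_at, which is annotated to the RefSeq transcript, stayed between 78.5 and 97.5 in all 18 arrays and gave 0.01 ± 0.10 at 2.5 h and 0.002 ± 0.104 at 1 h. The Inhba pattern therefore rests on 1 of its probe sets. Which part of the transcript each of them reads was not examined.

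Inhbb (chromosome 13, 33083671 to 33089373, minus strand; probe set 1377163_at) was lower after ligand in each MEF2-VP16-ER culture. Its intensity there was 474, 831 and 770 at 0 h in replicates 1, 2 and 3. It was 380, 438 and 472 at 1 h and 174, 312 and 322 at 2.5 h. In control neurons the values were 505, 714 and 833 at 0 h, 503, 728 and 782 at 1 h and 472, 726 and 689 at 2.5 h. The 3 MEF2-VP16-ER arrays at 2.5 h were the lowest of the 18. Those at 1 h lay below all MEF2-VP16-ER arrays at 0 h and all control arrays at 1 h, and replicate 1 was the lowest of its group throughout. The group means with MEF2-VP16-ER were 692 ± 191 (SD, n = 3), 430 ± 46.8 and 269 ± 83.0.

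The induction of Inhbb at 2.5 h was -1.21 ± 0.38 log2 units, a fold of 0.433, and did not pass (limma adjusted p = 0.521). With the replicate number as a block, which takes out the standing difference between replicate 1 and the others, it was -1.21 ± 0.13 and passed (adjusted p = 0.000216), and this call was kept when any 1 of the 12 arrays was left out (adjusted p = 0.000463 to 0.00128). On that fit Inhbb fell. By replicate the induction was -1.28, -1.39 and -0.95. Within MEF2-VP16-ER neurons alone, a comparison added after the values were seen, Inhbb fell by 1.32 ± 0.27 from 0 h to 2.5 h also without the block (limma adjusted p = 0.0292; 0.789% of all probe sets were called there, and 2.33% with the block). The induction at 1 h was -0.61 ± 0.38 (limma adjusted p = 0.996). At 1 h alone the constructs differed by -0.60 ± 0.27, a comparison also added after the values were seen (limma adjusted p = 1.00; 0.00794 with the block). In that comparison 0.0612% of all probe sets were called without the block and 0.254% with it. At 2.5 h alone, likewise added after the values were seen, the difference was -1.20 ± 0.27 (limma adjusted p = 0.0369, and 1.33e-06 with the block). There 1.28% of all probe sets were called without the block and 3.49% with it. The constructs at 0 h differed by 0.01 ± 0.27 (adjusted p = 0.998).

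Inha, which encodes the alpha subunit, gave 0.18 ± 0.22 at 1 h (limma adjusted p = 0.998) and 0.08 ± 0.22 at 2.5 h (adjusted p = 1.00). Its intensity was 246, 227 and 193 with MEF2-VP16-ER at 2.5 h and 238, 243 and 195 in control neurons, and the groups overlapped. Over all arrays it spanned 180 to 301. The highest value was replicate 1 with MEF2-VP16-ER at 1 h.

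Among the 3 receptor genes of the 10, Acvr2b, a type II receptor for activin and several BMPs (chromosome 8, 128016589 to 128056193; probe set 1388179_at), had the largest induction in size at 2.5 h. Its intensity with MEF2-VP16-ER was 265, 228 and 194 before ligand, 313, 210 and 235 at 1 h and 358, 282 and 343 at 2.5 h. In control neurons it was 267, 269 and 245, then 282, 250 and 218, then 253, 217 and 235. At 2.5 h the MEF2-VP16-ER arrays lay above the control arrays of that time and above their own 0 h arrays, and at 1 h the groups overlapped. The induction was 0.63 ± 0.20 log2 units at 2.5 h, a fold of 1.55 (limma adjusted p = 0.509), and 0.18 ± 0.20 at 1 h (adjusted p = 0.996). With the replicate block the value at 2.5 h was 0.63 ± 0.13 and passed (adjusted p = 0.0356), so Acvr2b rose on that fit, with 0.48, 0.58 and 0.83 in replicates 1, 2 and 3. Within MEF2-VP16-ER neurons alone the change to 2.5 h was 0.49 ± 0.14 (limma adjusted p = 0.190; 0.00888 with the block), and the difference between constructs at 2.5 h was 0.45 ± 0.14 (adjusted p = 0.206; 0.0128 with the block). Both of these comparisons were added after the values were seen. Before ligand the constructs differed by -0.18 ± 0.14 (limma adjusted p = 0.738). Control neurons changed by -0.14 ± 0.14 to 2.5 h, which did not pass. Both of these enter the induction. The blocked call on the induction was kept without control 0 h replicate 1, control 2.5 h replicate 3, MEF2-VP16-ER 0 h replicate 2 or MEF2-VP16-ER 2.5 h replicate 2. It was lost without any 1 of the other 8 arrays, so that it held in 4 of 12 fits, with adjusted p = 0.0277 to 0.131 and values of 0.54 to 0.71.

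Acvr2a, the other type II activin receptor, spanned 681 to 1074 with overlapping groups and gave 0.08 ± 0.18 at 2.5 h (limma adjusted p = 1.00). Acvr1, a type I receptor of BMP signalling, is measured by 3 probe sets. At 2.5 h they gave -0.17 ± 0.16, -0.04 ± 0.23 and -0.38 ± 0.24 for 1379217_at, 1385069_at and 1398277_at, none of which passed (limma adjusted p = 1.00 for each; 0.727 to 0.994 with the block). On 1398277_at the MEF2-VP16-ER arrays had 256, 288 and 359 before ligand and 256, 202 and 171 at 2.5 h, so replicate 1 stayed level while replicates 2 and 3 were lower. Control neurons had 225, 214 and 272 and then 230, 197 and 225. On 1385069_at the control arrays were 548, 552 and 689 at 0 h and 481, 536 and 466 at 2.5 h, without overlap, a change of -0.26 ± 0.16 (limma adjusted p = 1.00), and the MEF2-VP16-ER arrays changed by -0.29 ± 0.16 (adjusted p = 0.960).

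**Figure D2:**
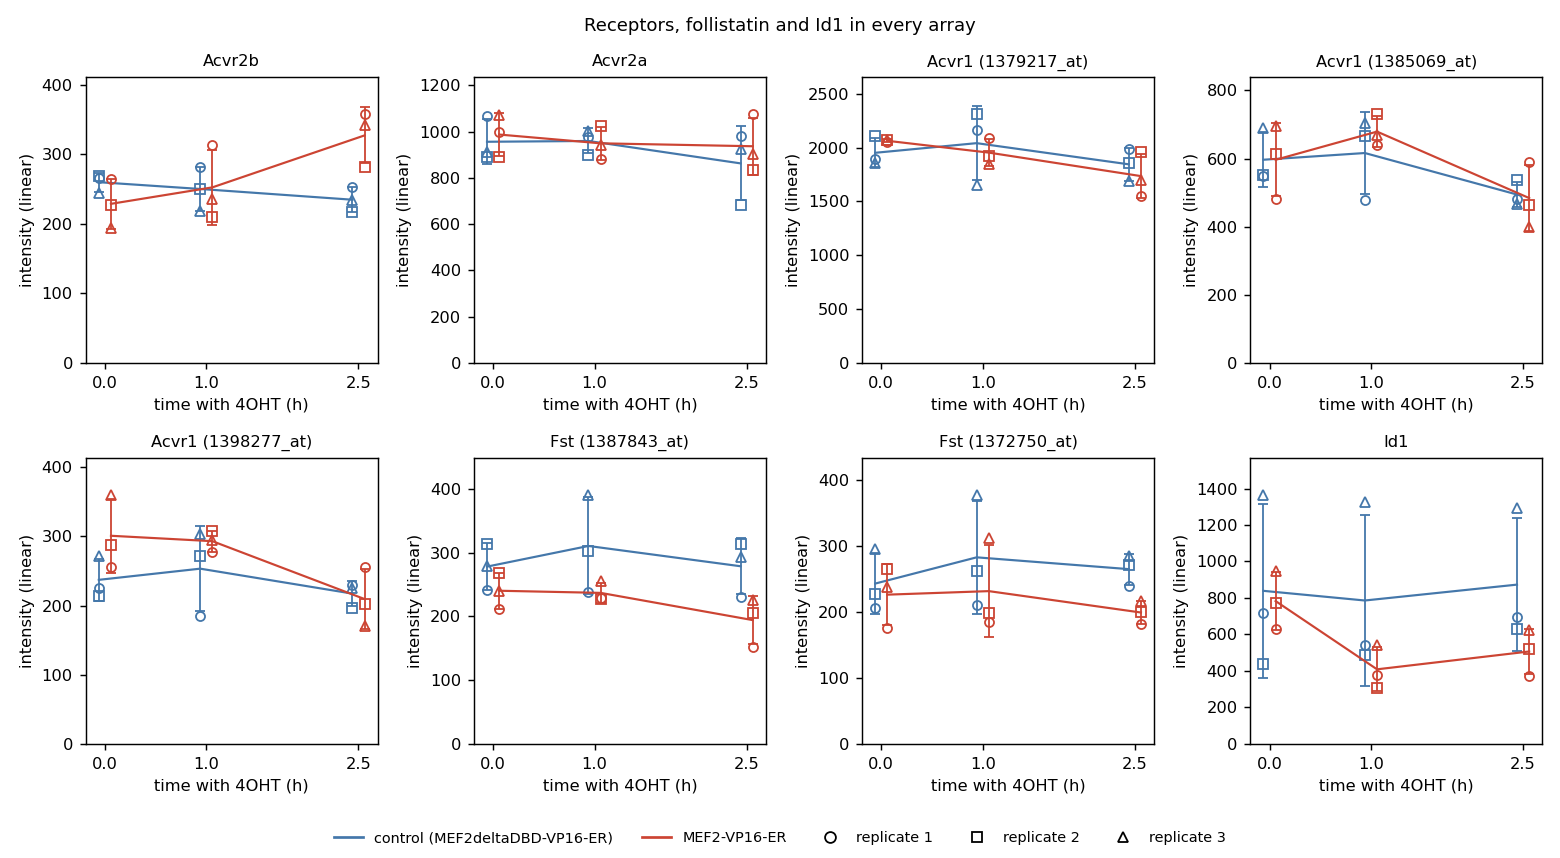
Intensity (linear axis from 0) of Acvr2b, Acvr2a, the 3 Acvr1 probe sets, the 2 Fst probe sets and Id1 against time with 4OHT, drawn as for Bambi (symbols are arrays, lines join means, bars are SD with n = 3). Acvr2b with MEF2-VP16-ER is above control neurons at 2.5 h, and replicate 3 of Id1 is the highest of each group with either construct.

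The inductions of both Fst probe sets at 2.5 h were negative and did not pass. At that time both were lower in the MEF2-VP16-ER arrays than in the control arrays without overlap. The share of all probe sets without overlap was not counted, in this comparison or in any other described here. On 1387843_at the intensity at 2.5 h was 152, 205 and 226 with MEF2-VP16-ER and 230, 313 and 293 in control neurons, without overlap. At 0 h it was 212, 269 and 240 against 241, 314 and 279, which overlapped, with a difference of -0.20 ± 0.17 (limma adjusted p = 0.771). The induction was -0.30 ± 0.24 at 2.5 h (limma adjusted p = 1.00; 0.597 with the block). The difference between constructs at 2.5 h alone, added after the values were seen, was -0.49 ± 0.17 (limma adjusted p = 0.300) and passed with the block (adjusted p = 0.00845; 1.28% of all probe sets were called in that comparison without the block and 3.49% with it). On 1372750_at the intensity at 0 h was 175, 265 and 238 against 206, 227 and 295, which overlapped. At 2.5 h it was 182, 200 and 216 against 238, 271 and 284. The difference between constructs there was -0.38 ± 0.21 and did not pass (limma adjusted p = 0.686; 0.105 with the block), and the induction was -0.28 ± 0.30 (adjusted p = 1.00; 0.732 with the block). Summed fibroblast and meningeal markers at 2.5 h were 841 to 1167 with MEF2-VP16-ER and 1099 to 1428 in control neurons, and at 0 h they were 851 to 1212 and 1049 to 1467. Their ranges overlapped, and the part of such cells in the Fst values was not tested.

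Id1, a transcriptional inhibitor that BMP signalling switches on through Smads, varied most between replicates. With MEF2-VP16-ER its intensity was 628, 775 and 946 at 0 h, 376, 307 and 543 at 1 h and 375, 522 and 623 at 2.5 h. In control neurons it was 719, 435 and 1363, then 543, 489 and 1326, then 698, 631 and 1291. Within MEF2-VP16-ER neurons both later groups lay below the 0 h group without overlap, but neither change passed by limma. The change was -0.93 ± 0.42 at 1 h and -0.62 ± 0.42 at 2.5 h (limma adjusted p = 0.192 with the block at 2.5 h). Replicate 3 was the highest of each group with either construct, and in control neurons it stood far above the others at each time. The induction was -0.84 ± 0.59 at 1 h (limma adjusted p = 0.996) and -0.76 ± 0.59 at 2.5 h (adjusted p = 1.00; 0.419 with the block), negative in 3 of 3 replicates at both times. Control replicate 3 also stood apart for Id3, another gene of this kind outside the 10 (3214, 3565 and 2493 against 417 to 844 in the other control arrays). With MEF2-VP16-ER replicate 3 was again the highest for Id3 at each time (1855, 1313 and 735). Summed oligodendrocyte markers were 13562 to 18219 in replicate 3 and 8059 to 11996 in replicates 1 and 2, and summed astrocyte markers were highest in replicate 1 (47380 to 54440). Their part in the Id1 values was not tested.

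Smad7, which encodes the inhibitory Smad, had 3 dim probe sets, and no detection calls come with the values. They spanned 74.6 to 120 (1368896_at), 34.0 to 42.3 (1368897_at) and 45.7 to 68.9 (1368898_at) over the 18 arrays. At 2.5 h their inductions were -0.04 ± 0.19, -0.06 ± 0.07 and 0.01 ± 0.10, all with limma adjusted p = 1.00. At 1 h 1368898_at was at 0.25 ± 0.10 (adjusted p = 0.996). Before ligand 1368898_at was 49.1, 45.7 and 50.7 with MEF2-VP16-ER and 58.0, 55.4 and 63.3 in control neurons, a difference of -0.21 ± 0.07 without overlap (adjusted p = 0.456). On 1368897_at the difference had the other sign, 0.11 ± 0.05, also without overlap (adjusted p = 0.562), so the probe sets gave no common direction.

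Counted over the 16 probe sets, 2 were called at 2.5 h by limma without the block, Bambi and Inhba 1383486_at, both higher, where 0.177% of all probe sets were called. Since both were picked on this comparison, nothing is read from that count or from how it moved with arrays left out. The count was 1, Bambi alone, without control 0 h replicate 1 or 2, control 2.5 h replicate 1 or 3, MEF2-VP16-ER 0 h replicate 1 or 3, or MEF2-VP16-ER 2.5 h replicate 3. With the block 4 were called (0.937% of all), Inhbb and Acvr2b being added. This count also holds the 2 picked probe sets, so it is not read against that share. The median induction of the 16 was -0.04, against 0.004 over all probe sets, and 7 of 16 were positive, against 51.5% of all.

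At 1 h 1 of the 16 was called, Bambi (0.00322% of all). It was picked on this induction as well, so nothing is read from this count or its changes either. The count was 0 without control 0 h replicate 1 or 2, control 1 h replicate 2 or 3, MEF2-VP16-ER 0 h replicate 1 or 3, or MEF2-VP16-ER 1 h replicate 1 or 3, and the induction of Bambi then lay within its range of 1.17 to 1.38 over all such fits. For the later minus the earlier induction limma called 0 of 16 (0.0419% of all). Of the 16, 4 had an unadjusted limma p under 0.05, as had 3.92% of all. These were Bambi, Inhba 1383486_at, Acvr2b and Smad7 1368898_at. With the block 1 was called, Inhba 1383486_at at 1.04 ± 0.20 (0.399% of all). Bambi and Inhba were picked on these arrays, so nothing is read from these counts. Before ligand 0 of 16 differed between the constructs (0% of all), also with the block (0.00322% of all). Of the 16, 2 had an unadjusted limma p under 0.05 there, both of Smad7, as had 8.81% of all. In control neurons 0 of 16 changed by limma at 1 h (0% of all, with or without the block) or 2.5 h (0% of all, 0.00322% with the block). None had an unadjusted limma p under 0.05, as had 2.71% of all at 1 h and 2.15% at 2.5 h.

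**Figure D3:**
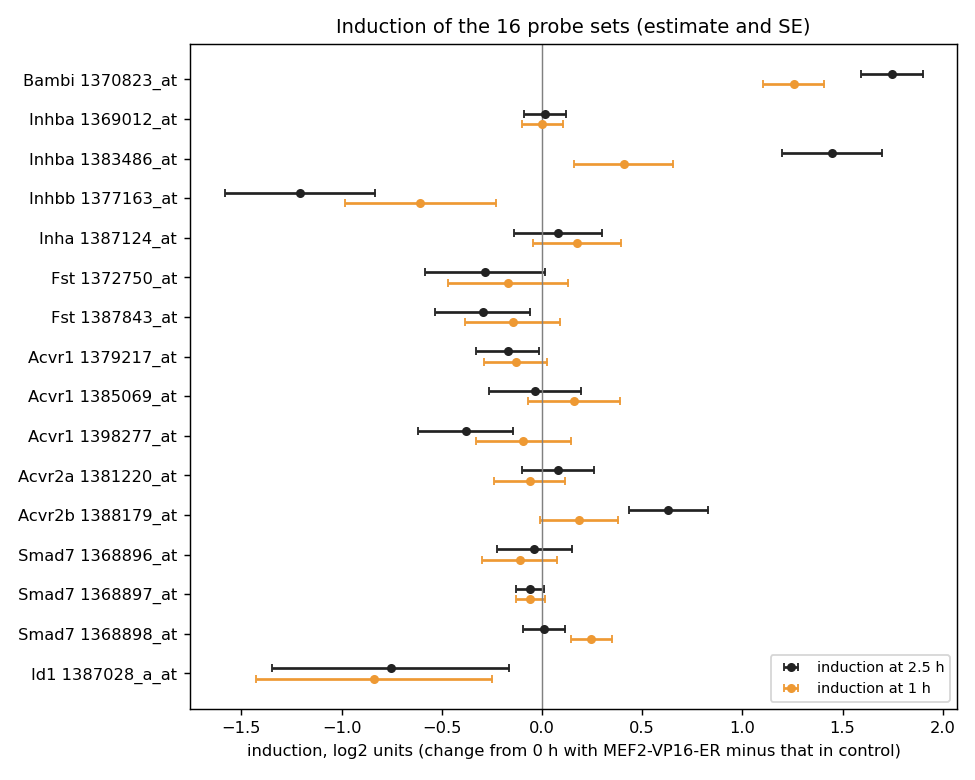
Induction at 1 h and 2.5 h of each of the 16 probe sets in log2 units (points are limma estimates, bars their standard errors, n = 3 in each group). Bambi is to the right at both times, Inhba 1383486_at and Acvr2b mainly at 2.5 h, Inhbb to the left, and the Smad7 probe sets lie near 0 apart from 1368898_at at 1 h (0.25).

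The wider TGF-beta family pathway was described through 80 further genes in 5 lists, of which 71 were measured, each by its brightest probe set. At 2.5 h limma called 0 of the 71 (5 had unadjusted p under 0.05, as had 4.78% of all probe sets), and the median was 0.02 with 38 positive. With the block 1 of the 71 was called, where 0.937% of all probe sets were, a count near the background: Skil, a nuclear repressor of Smad-driven transcription, was at -0.34 ± 0.07 (limma adjusted p = 0.0934) and fell on the fit with the block (adjusted p = 0.0293). The Skil intensity with MEF2-VP16-ER was 2344, 2330 and 2365 at 0 h, 2087, 2021 and 2085 at 1 h and 1925, 1976 and 1965 at 2.5 h. In control neurons the 9 arrays lay between 2166 and 2509. The MEF2-VP16-ER groups did not overlap with each other, and those with ligand lay below all control arrays. Skil was named for its call on these same arrays, so this separation adds no support to that call.

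By role, 17 ligands had a median induction of -0.001 at 2.5 h, and those with the largest values were Gdf15, a stress-linked ligand, at -0.46 ± 0.28 and Gdf11, a relative of myostatin, at -0.45 ± 0.32, while the other Gdf11 probe set was at 0.03 ± 0.11. Among 12 receptors and co-receptors, 9 were positive with a median of 0.08, led by the BMP type II receptor gene Bmpr2 at 0.67 ± 0.24 and the TGF-beta type I receptor gene Tgfbr1 at 0.32 ± 0.22. Their other probe sets gave -0.07 for Bmpr2 and -0.08 for Tgfbr1. The 13 extracellular antagonists and binders stayed between -0.11 and 0.12, with Nbl1 and Chrd, which bind BMPs, at the ends. Of 16 Smads and intracellular regulators 6 were positive (median -0.09): Smad3, a transducer of activin signals, was at 0.51 ± 0.22 (its other probe set at -0.16) and Ppp1r15a, which directs a phosphatase, at -0.37 ± 0.47. Among 13 transcripts known to respond to the family the ends were Id3, at -1.35 ± 1.22, and Ccn2, a matrix-associated growth factor, at 0.64 ± 0.48. Apart from Skil none of these passed. At 1 h limma called 0 of the 71 (5 with unadjusted p under 0.05, against 4.7% of all probe sets). There 3 of the 16 Smads and regulators were positive, against 44.1% of all probe sets. Before ligand 14 of these 16 were higher with MEF2-VP16-ER by the estimates (median 0.095), against 53.9% of all, and none was called. The inductions subtract those 0 h arrays, and the part of this starting difference was not tested.

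**Figure D4:**
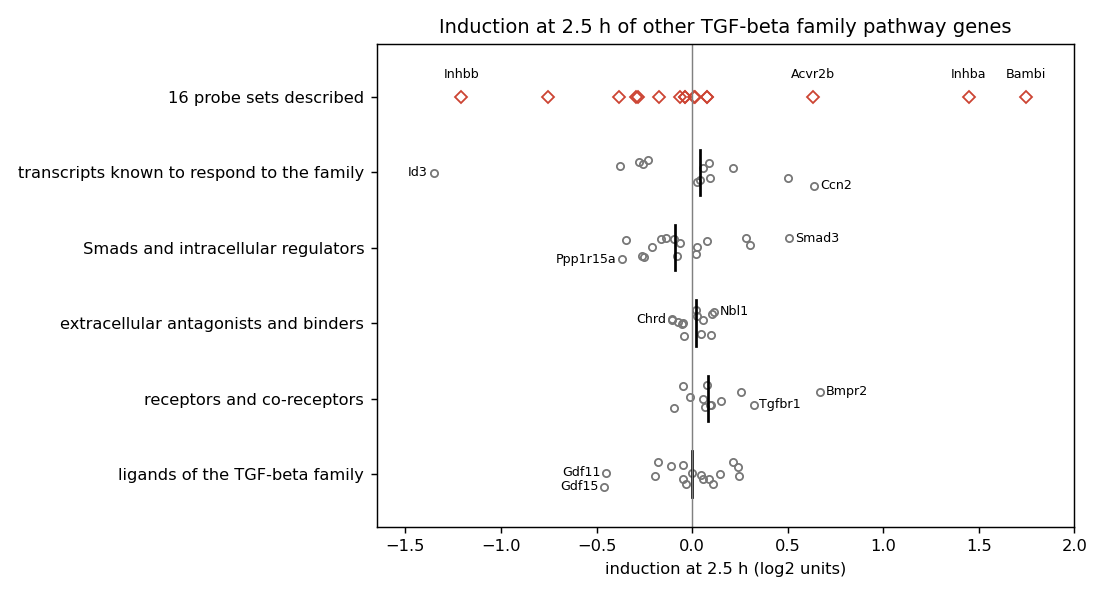
Induction at 2.5 h in log2 units for the 71 other pathway genes by role (open circles, 1 per gene; vertical bars are list medians; vertical scatter has no meaning) and for the 16 probe sets described (diamonds). Bambi and Inhba 1383486_at, which were picked on their inductions, lie beyond every gene of the 5 lists on the right.

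Genes with a pattern like Bambi's were ranked by Pearson correlation over the 18 arrays, among 77 probe sets of other named genes whose group means spanned at least 1 log2 unit. The 5 closest were Rgs2, a regulator of G-protein signalling (r = 0.977), the transcription co-regulator Cited2 (0.967), the bZIP repressor Nfil3 (0.958), Rgs3 (0.956) and Rnf122 (0.956), which encodes a RING finger protein. For Inhba 1383486_at they were the receptor gene Gpr37 (0.923), Rapgef5 (0.921), which encodes an exchange factor for small GTPases, the potassium channel gene Kcna4 (0.919), the transcription factor gene Klf2 (0.914) and the heparan sulfate enzyme gene Hs3st1 (0.914). All points come from the same arrays, and the candidates were required to vary, so the values describe likeness and are no test.

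**Figure D5:**
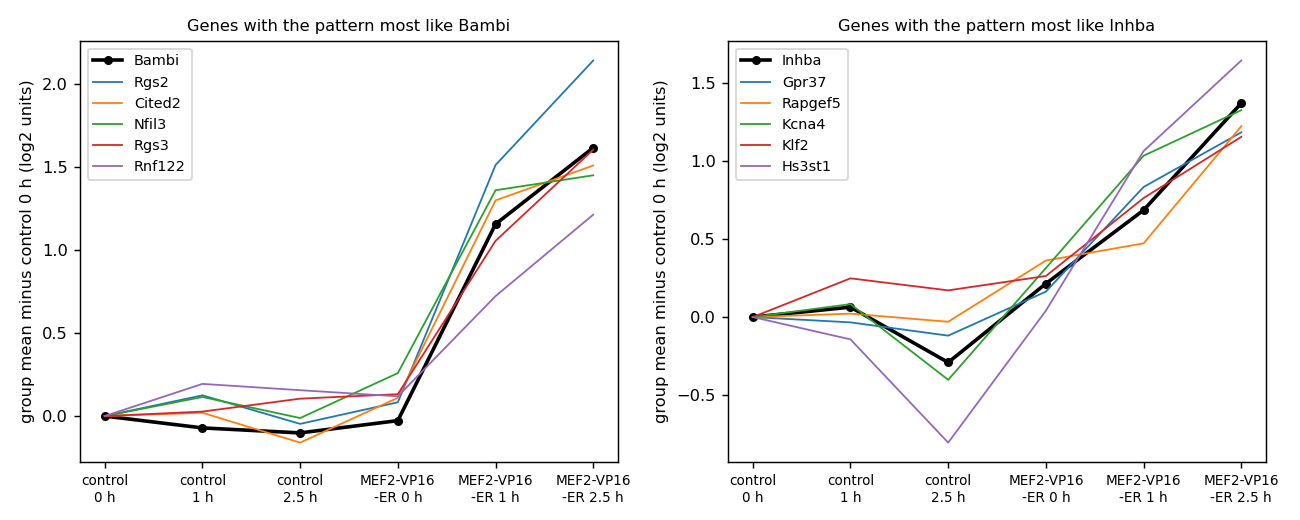
Group means relative to control neurons at 0 h, in log2 units, for Bambi (left) and Inhba 1383486_at (right) as thick lines and for the 5 genes most like each as thin lines. The genes like Bambi are near their start in control neurons and are higher at 1 h and 2.5 h with MEF2-VP16-ER, while Hs3st1 and Kcna4 on the right, like Inhba, are also lower in control neurons at 2.5 h.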

How the data were processed

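The authors deposited 1 intensity per probe set and array on a linear scale. How they were summarised and normalized is not stated in the labels or file headers. RNA was labelled with biotin for Affymetrix arrays, per the labels. Values were used as deposited, as log2(intensity + 16), without a filter; 57 control probe sets were left out. All 18 arrays entered 1 limma model with a mean per group, tested by eBayes with Benjamini-Hochberg adjustment over 31042 probe sets. Members, lists and tests were chosen with earlier results of these data known. All probe sets of the 10 genes are named; from each list, those called and the 2 largest inductions at 2.5 h.

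Same-numbered arrays had residuals correlated above 0.1 in 44 of 45 pairs; the exception (0.0677, MEF2-VP16-ER 0 h and 1 h, replicate 2) leaves the induction at 1 h unpaired, and elsewhere the replicate block is given where it changed a call; within MEF2-VP16-ER neurons at 1 h, the comparison of that pair, it is not given. Symbols came from the platform annotation (0 needed updating) and promoters from RefSeq (GRCr8; 8 of 10 genes matched). Only the limma fit was run on simulated data, for the induction at 2.5 h and with changes planted in probe sets above the median level. Its outcome is not given here. Alternatives were other normalizations, pseudocounts of 1 and 64, a level filter, eBayes with trend, smaller fits, the block and left-out arrays. Models were run in R 4.3.3 with limma 3.58.1; sequences and figures used Python 3.11.15 (matplotlib 3.10.9).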

Additional observations from a re-analysis of the deposited data

Results flagged for a closer look

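In the fit blocked on replicate number, the response to 4OHT at 2.5 h differed between the constructs, by the limma test of that difference, for Inhbb (-1.21 log2 units) and Acvr2b (0.63). With 1 array left out, the blocked call was kept in 12 of 12 fits for Inhbb and in 4 of 12 for Acvr2b. Neither passed without the block (limma adjusted p = 0.521 and 0.509). The inductions of Bambi at 1 h (1.26) and 2.5 h (1.75, with and without the block) and of Inhba 1383486_at at 2.5 h (1.45, with and without the block), and the later minus the earlier induction of Inhba 1383486_at (1.04), are listed as values only, since these genes were picked on them. Groups of 3 arrays were too small to look for single outlying arrays.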

How the results depend on the processing

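The number of the 16 probe sets called at 2.5 h was 2, against 4 with the replicate block and 1 when only probe sets above the median level were tested, which keeps 11 of the 16 and drops both Inhba probe sets; it was 1 to 2 with arrays or a replicate number left out. At 1 h it was 1, against 0 with only the groups of the contrast in the fit, and 0 to 1 with arrays or a replicate number left out; it was 1 with the replicate block (0.029% of all probe sets). For the later minus the earlier induction it was 0, against 1 with the replicate block. Among the 16 the block changed no other call on the inductions, before ligand or in control neurons. The cause of these changes was not tested beyond the removal of probe sets by the filter. The calls of Bambi and Inhba, picked on these inductions, are counted here with nothing read from them. With arrays or a number left out, the induction at 2.5 h was 1.68 to 1.82 log2 units for Bambi, 1.18 to 1.64 for Inhba 1383486_at and -1.45 to -0.94 for Inhbb, which without the block was called in 1 of those 15 fits. No called value changed sign under any setting tried. With 3 arrays a group the number of arrays limits precision, and dim probe sets such as those of Smad7 and Inhba 1369012_at may lie near background.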
